A study of Oryza sativa with 12 samples.

Results

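EPl rows are the rows of the expression tables whose identifier starts with EPlOSAG, the form that Ensembl Plants gives to predicted noncoding RNA genes of rice. Of the 38034 identifiers in the 12 tables, 6882 were EPl rows, and 3198 of these reached 1 FPKM (fragments per kilobase of the row, relative to sequencing depth) or more in at least 3 libraries. These 3198 are the members described here, and the other 3684 EPl rows stayed below that filter. The libraries were made from total RNA of rice (Oryza sativa), from shoot and from root, of Nipponbare (WT) and of a single mutant line, osspt5-1#12, with 3 libraries in each of the 4 groups. All 4 groups shared the same chamber settings, 28 °C in a 15-h day and 24 °C in a 9-h night at 70% humidity. The series title names depletion of OsSPT5-1, while the allele and the plant age are not given in the labels. Whether replicates came from separate plants is not stated, so p-values reflect library-to-library spread pooled over the 4 groups, which may be technical.

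As background, predicted noncoding RNA genes of plants include transfer RNAs, which carry amino acids to the ribosome, and small nucleolar RNAs, which guide modification of ribosomal RNA. They also include small nuclear RNAs, which work in splicing, and the precursors of microRNAs, which pair with target transcripts. SPT5 is a conserved elongation factor that binds RNA polymerase II together with SPT4 and travels with it along the gene. The tables do not pair EPl identifiers with names or classes, and the rice gene table at hand holds none of them. No member is therefore given a class, a role or a position here, and the identity of the organs and of the mutant line could not be checked on named marker genes through these rows.

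The members were short. Their recovered length, worked out from the size of the FPKM steps, had a median of 65 bases with quartiles of 49 and 87 and a range of 15 to 270. Of the 3198, 1299 (40.6%) were under 60 bases, 1356 (42.4%) were 60 to 99, 521 (16.3%) were longer but under 200, and 22 were 200 or longer. The median of the locus rows tested, which carry ordinary rice gene identifiers, was 1554 bases. A single read on a row of the median member length was worth 0.977 to 1.52 FPKM, depending on the library, so that a member can pass the filter on 3 reads. Lengths of 5 members did not come out whole, and their reads are less certain. Reads and lengths of other rarely read members can also be too low, since the smallest whole reads that fit were taken.

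Most members were read rarely. The sum over 12 libraries had a median of 23 reads, 983 members (30.7%) had 12 reads or fewer and 90 had more than 1000. Reads were present in all 12 libraries for 797 members and in exactly 3 for 322. The mean level over 12 libraries had a median of 2.1 FPKM. It was under 1 FPKM for 816 members (25.5%), 1 to 10 for 1808 (56.5%), 10 to 100 for 503 (15.7%), 100 to 1000 for 68 and over 1000 for 3. At the border of the filter, 533 members stood at 1 FPKM or more in exactly 3 libraries, with a median of 7 reads, and 773 EPl rows just outside it stood there in exactly 2, with a median of 3 reads. A row that passed through 3 libraries of a single group had to differ from the other groups, so counts of changed members describe the rows that passed and not all EPl rows.

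**Figure D1:**
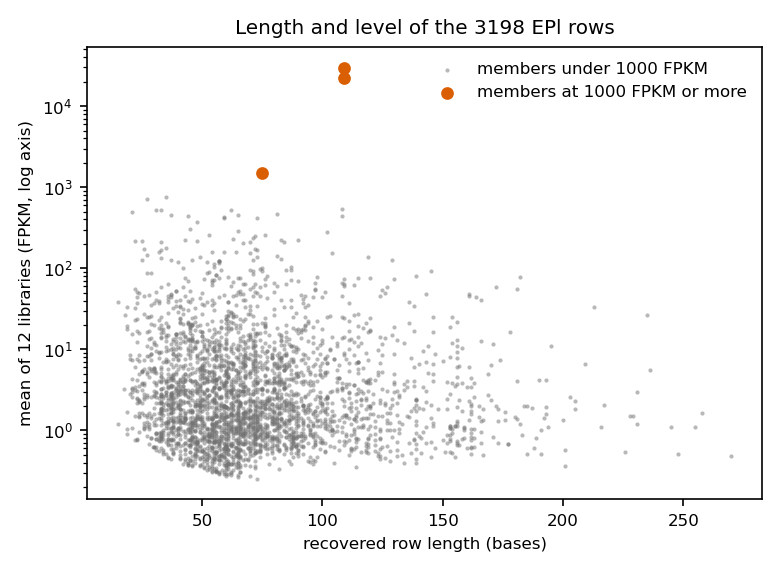
Each point is a member, with its recovered length in bases on the x axis and its mean FPKM over 12 libraries on a log y axis. Most points lie under 100 bases and under 10 FPKM, and 3 lie above 1000 FPKM.

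In 3 libraries the picture stood apart by the reads on members. Total reads were 10118071 to 15749857 per library. Members took 0.245% to 0.468% of them in 9 libraries but 2.195% in mutant shoot library 1, 3.15% in mutant shoot library 3 and 1.87% in WT root library 1. These 3 libraries also had the smallest totals, 12208108, 10612862 and 10118071 reads, against 13252054 or more in the others. Most of the member reads there lay on the pair EPlOSAG00000023740 and EPlOSAG00000023741. Without the 3 very abundant members described next, the remaining 3195 took 0.236% ± 0.0136 in WT shoot, 0.307% ± 0.0447 in mutant shoot, 0.231% ± 0.0178 in WT root and 0.207% ± 0.0256 in mutant root (SD, n = 3). In shoot the rich libraries are both mutant and mutant shoot library 2 is not rich, so telling library from genotype rests on that lone library there. Counts are given with and without these 3 libraries.

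**Figure D2:**
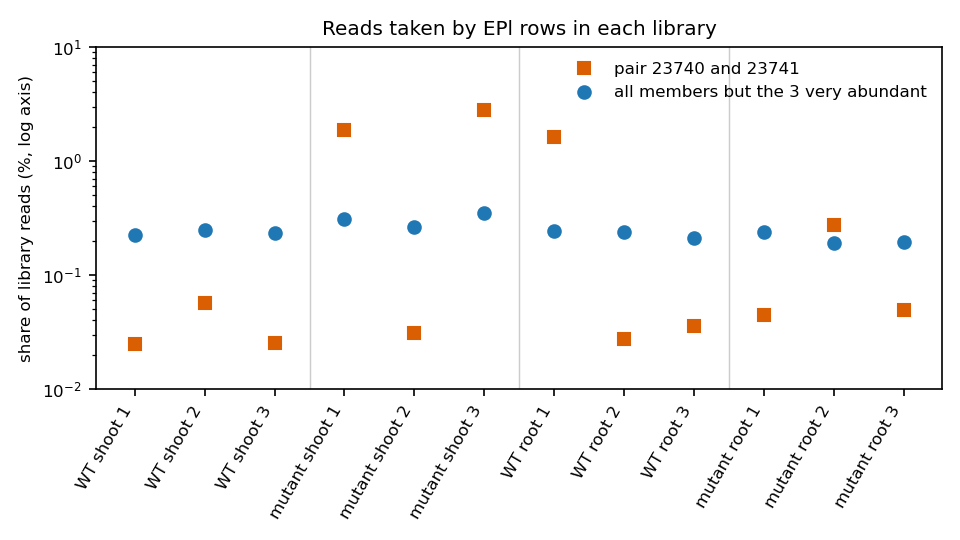
Points give, on a log axis, the percent of a library's reads that fell on the pair EPlOSAG00000023740 and EPlOSAG00000023741 and on the other members, for each of the 12 libraries. The pair makes up most of the share in the 3 rich libraries, and the other members stay at 0.191% to 0.352%.

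The most abundant member, EPlOSAG00000023741 (109 bases), stood at 909.6, 2113.9 and 906.8 FPKM in WT shoot libraries 1 to 3 and at 105155.2, 1103.2 and 150575.6 in mutant shoot. In root it stood at 80393.3, 998.5 and 1292.4 FPKM in WT and at 1677.9, 12373.7 and 1778.9 in the mutant. The 3 rich libraries were far above the rest, mutant root library 2 lay between, and the groups overlapped in both organs.
EPlOSAG00000023740, also 109 bases, was high in the same libraries. Its levels were 1364.5, 3150.0 and 1435.5 FPKM in WT shoot, 67297.5, 1727.0 and 104872.3 in mutant shoot, 68057.9, 1543.2 and 1977.1 in WT root, and 2444.9, 12687.0 and 2702.6 in mutant root. Neither member passed the test in any comparison of all 12 libraries, with log2 changes of 4.43 (SE 1.99) and 3.65 (SE 1.68) in mutant against WT shoot (limma adjusted p = 0.197 and 0.208). Without the 3 rich libraries these log2 differences were −0.126 for EPlOSAG00000023741 and −0.087 for EPlOSAG00000023740. Without mutant shoot library 2, which is not rich, EPlOSAG00000023741 was called in shoot (log2 change 6.71, limma adjusted p = 0.0492) and between the mutant organs (−5.24, limma adjusted p = 0.0495).

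The balance within the pair moved with its level. EPlOSAG00000023741 stood at 0.632 to 0.686 of the level of EPlOSAG00000023740 in 8 libraries, at 0.975 in mutant root library 2, and at 1.56, 1.44 and 1.18 in the rich libraries (mutant shoot 1, mutant shoot 3, WT root 1). Reads of rows that resemble each other can be split or lost in counting, and whether these rows share sequence was not tested. The rows EPlOSAG00000023757 and EPlOSAG00000023758 (108 bases), picked after their values were seen for their neighbouring numbers, did not rise in the same libraries alone. EPlOSAG00000023757 stood at 115.1, 788.4 and 209.3 FPKM in WT shoot, 1095.9, 154.6 and 2493.4 in mutant shoot, 166.5, 9.59 and 21.0 in WT root, and 16.7, 131.0 and 105.6 in mutant root. Within WT shoot it was highest in library 2, as the pair was, and it passed the test in no comparison, nor did EPlOSAG00000023758.

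The remaining very abundant member, EPlOSAG00000020593 (75 bases), did not follow the pair. It stood at 1799.7, 3013.3 and 2316.7 FPKM in WT shoot, 1112.9, 1539.8 and 1306.5 in mutant shoot, 1241.3, 1896.8 and 1639.9 in WT root, and 1089.7, 539.3 and 295.5 in mutant root. Every mutant library was below every WT library of the same organ. The log2 differences of −0.83 in shoot and −1.49 in root missed the threshold (SE 0.419, limma adjusted p = 0.248 and 0.0569). Mutant root was 2.06-fold below mutant shoot (log2 change −1.23, limma adjusted p = 0.0466), a call that was lost under 15 other settings, with adjusted p between 0.0529 and 0.272 there. The difference in root passed the threshold without mutant root library 1 (limma adjusted p = 0.00544), with quantile normalization (0.0375) and with limma-voom (0.0415).

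Organ preference was compared within each genotype. In WT, 283 members (8.85%) were higher in root and 258 (8.07%) higher in shoot, where 17.8% and 16.5% of all rows tested were called. The difference between these shares was not tested. Over both directions, 10.3% of members with 3 to 12 reads and 28.7% of those with more than 200 and up to 1000 reads were called. Of the 90 members with more than 1000 reads, 17.8% were called, so the share did not climb throughout with reads. Without the 3 rich libraries 420 members were called in WT, 202 higher in root and 218 in shoot, so the majority turned. Of the members called, 266 and 244 differed at least 2-fold. Among the 248 members with at least 100 reads in the higher organ, 44 were higher in root and 47 in shoot. The share over all rows with that many reads is not given here. The median log2 difference was 0.029 over members and 0.115 over all rows tested. In whole organs, fewer cells of a type and less RNA per cell cannot be told apart.

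A strong preference, of at least 3 on the log2(FPKM + 1) scale and called, was shown by 43 members (1.35%) for root and 41 (1.28%) for shoot in WT, beside 2.14% and 2.53% of locus rows. In the mutant it was shown by 16 members (0.500%) for root and 47 (1.47%) for shoot, beside 0.901% and 2.196% of locus rows. Both genotypes shared it for 6 root members and 14 shoot members. Reads in all 6 libraries of an organ with none in the other organ were found for 10 members in root (0.313%, beside 0.159% of locus rows) and 18 in shoot (0.563%, beside 0.421%). Locus rows with reads as few as those of the members were not set apart for these shares.

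Among members with at least 100 reads in the higher organ, the largest root preference in WT belonged to EPlOSAG00000014598 (119 bases). It stood at 412.8, 143.5 and 144.6 FPKM in WT root and 192.6, 537.9 and 214.4 in mutant root, against 0, 16.3 and 0 in WT shoot and 6.88, 0.534 and 2.38 in mutant shoot. All 6 root libraries lay above all 6 shoot libraries, 43.0-fold by means in WT (log2 change 6.31, SE 1.03, limma adjusted p = 6.81e-04) and 96.5-fold in the mutant (limma adjusted p = 9.14e-04). The WT shoot mean of EPlOSAG00000014598 rests on library 2, and the log2 change in WT was 7.68 without it and 5.63 without WT shoot library 1 or 3. In the mutant it was 6.95 without mutant shoot library 1 and 7.52 without the rich libraries. EPlOSAG00000023777 (71 bases) stood at 75.2, 48.9 and 63.8 FPKM in WT root and at 0 in all 3 WT shoot libraries, at least 66.9-fold higher when 3 reads over the group are taken as the floor (log2 change 5.97, SE 0.858, limma adjusted p = 2.92e-04). In the mutant its values of 14.7, 4.17 and 0 FPKM in root and 4.62, 0 and 2.65 in shoot overlapped. Mutant root was 9.97-fold below WT root by means, without overlap (log2 change −3.86, SE 0.858, limma adjusted p = 0.0240).

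On the shoot side, EPlOSAG00000044503 (235 bases) stood at 101.0, 107.7 and 110.0 FPKM in WT shoot, from 1126 reads, and had no read in the other 9 libraries. WT root was at least 307.0-fold lower (log2 change −6.74, SE 0.161, limma adjusted p = 2.25e-09). EPlOSAG00000020693 (67 bases) stood at 36.5, 82.9 and 56.6 FPKM in WT shoot and had no read in any root library, at least 48.3-fold lower in WT (log2 change −5.82, SE 0.349, limma adjusted p = 8.19e-07). Neither row would have passed the filter without WT shoot, so the filter itself favoured a difference for both.

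In the mutant the split between organs was less even than in WT. Root was higher for 123 members (3.85%) and shoot for 331 (10.4%), where 13.9% and 16.7% of all rows tested were called. Among members with a mean of 100 to 1000 FPKM, 1 was higher in mutant root and 20 in mutant shoot, of 68, against 4 and 8 in WT. Of all 1221 rows tested at that level, 21.4% were higher in mutant root and 18.9% in mutant shoot. The median difference was −0.142 over members and 0.042 over all rows. Without the 3 rich libraries, which leaves a lone mutant shoot library that is assumed to vary like the other groups, 109 members were called in place of 454.

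Calls in the same direction in both genotypes were made for 61 members higher in root, 21.6% of the WT calls and 49.6% of the mutant calls. They were made for 96 higher in shoot, 37.2% and 29.0%. Opposite calls were made for 8. No such overlap is given here over all rows tested, so these shares cannot be called particular to the members. The 2 organ comparisons use different libraries but share the estimate of each row's spread.

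**Figure D3:**
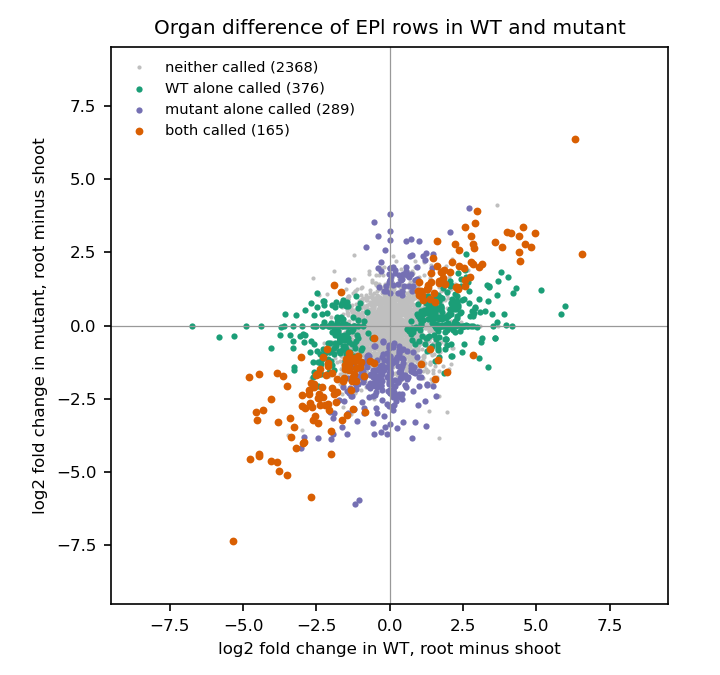
Each point is a member, with the log2 difference of root against shoot in WT on the x axis and in the mutant on the y axis, on the log2(FPKM + 1) scale. Colours mark 165 members called in both genotypes, 376 in WT alone, 289 in the mutant alone and 2368 in neither.

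In mutant organs the named members differed in whether WT showed the same. EPlOSAG00000046016 (74 bases) stood at 360.3, 122.1 and 69.6 FPKM in mutant root and 16.6, 14.6 and 14.01 in mutant shoot. In WT it stood at 25.4, 50.96 and 29.6 in root and 1.79, 2.71 and 0 in shoot. Root was above shoot in every library of both genotypes, 12.2-fold in the mutant (log2 change 3.19, SE 0.589, limma adjusted p = 0.00204) and 23.5-fold in WT (limma adjusted p = 3.46e-04).
EPlOSAG00000018341 (67 bases) had no read in the 6 root libraries, and stood at 129.2, 2.997 and 130.0 FPKM in WT shoot and 135.7, 131.7 and 240.5 in mutant shoot. WT shoot library 2 was low, and mutant root was at least 164.2-fold below mutant shoot (log2 change −7.35, SE 1.04, limma adjusted p = 3.89e-04). EPlOSAG00000007358 (43 bases) stood at 281.9, 352.9 and 206.0 FPKM in mutant shoot, where WT shoot had 3.07, 21.8 and 15.5. Mutant root had 14.5, 0 and 4.49 and WT root 4.597, 10.3 and 1.76, so only mutant shoot stood high. Mutant root was 44.2-fold below mutant shoot (log2 change −5.96, SE 0.932, limma adjusted p = 7.32e-04), and mutant shoot was 20.9-fold above WT shoot (limma adjusted p = 0.0116). Without the 3 rich libraries the mutant organ calls of EPlOSAG00000046016, EPlOSAG00000018341 and EPlOSAG00000007358 were lost (limma adjusted p = 0.0932, 0.0511 and 0.0509), while their log2 changes were as large or nearly so, at 3.23, −7.05 and −6.33. EPlOSAG00000046016 stood at 2.54 without mutant root library 1, and EPlOSAG00000007358 at −6.87 without mutant root library 1 and −4.89 without library 2, all called.

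The effect of the mutant line was compared within each organ. In shoot, 138 members (4.32%) were higher in the mutant and 104 (3.25%) lower, and 2956 were not called. Of all rows tested, 4.8% were called higher and 4.69% lower, a difference in shares that was not tested. Of the 242 calls, 64 were on members with 12 reads or fewer. Among the 238 members with at least 100 reads in the higher group, 33 rose and 19 fell. The share over all rows at that read minimum is not given here. Members with a mean of 100 to 1000 FPKM gave 8 rises and no fall, of 68, and those of 10 to 100 FPKM gave 45 rises and 18 falls, of 503. Of all rows tested, 4.18% rose and 4.51% fell at 100 to 1000 FPKM, and 5.59% rose and 4.12% fell at 10 to 100. The 574 members at 10 FPKM or more were also compared with the WT shoot mean. Their median log2 difference was 0.281, 0.128 and 0.283 in mutant shoot libraries 1 to 3. Over locus rows of any level it was 0.139, 0.110 and 0.154 there. Both were larger in the 2 rich libraries, and the part of those libraries in these counts was not tested. Which direction held the majority depended on scaling, since median-ratio factors gave 108 higher and 124 lower. With those factors the median over all rows went from 0.128 to −0.004 and that over members from 0.061 to 0.

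The count in shoot also rested on single libraries. It was 156 without WT shoot library 2, 146 without WT shoot library 3, with 71 higher and 75 lower, and 156 without mutant shoot library 1. It was 42 without the 3 rich libraries, where a lone mutant shoot library is left.

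EPlOSAG00000044503 had the largest fall in shoot among members with at least 100 reads in the higher group, from the WT levels given above to no read in mutant shoot, at least 321.0-fold lower (log2 change −6.74, SE 0.161, limma adjusted p = 3.09e-09). Its levels in WT shoot lay close together, and its reads were found in no other group. It passed the filter through WT shoot alone, so a difference from the other groups was built in. The libraries at 0 add no spread to the shared estimate, so its SE and p-value do not measure the spread of WT shoot alone. EPlOSAG00000052612 (111 bases) fell from 70.9, 104.9 and 89.2 FPKM in WT shoot to 0, 1.14 and 0 in mutant shoot, where it had 2 reads. The ratio of pooled reads was 189.0 (95% interval 52.00 to 1565.3, counting error only), and the log2 change was −6.10 (SE 0.483, limma adjusted p = 2.86e-05), or −5.36 without the rich libraries. In root it was near 0 in both genotypes, at 3.56, 0 and 1.36 FPKM in WT and 0 in the mutant.

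In root, 47 members (1.47%) were higher in the mutant and 135 (4.22%) lower, and 3016 were not called. Of all rows tested, 2.63% were called higher and 4.37% lower, a difference in shares that was not tested. Among the 227 members with at least 100 reads in the higher group, 12 rose and 27 fell, and no share over all rows at that read minimum is given here. The median log2 difference was −0.078 over members and 0.064 over all rows. Falls outnumbered rises under each scaling tried. The mutant root libraries differed most among themselves, with a median SD over members of 0.705 on the log2 scale, against 0.583 in WT shoot, 0.637 in mutant shoot and 0.628 in WT root. The count was 314 without mutant root library 1, 73 when the root groups were fitted alone and 77 without the 3 rich libraries.

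EPlOSAG00000029509 (111 bases) stood at 50.8, 48.0 and 46.9 FPKM in WT root and at 11.3, 0 and 0 in mutant root. It was 12.9-fold lower by means (log2 change −4.42, SE 0.764, limma adjusted p = 0.00754), with mutant root library 1 above the others, and the call was lost with the root groups alone (log2 change −4.42, limma adjusted p = 0.128) and without the 3 rich libraries (−4.39, limma adjusted p = 0.110). The log2 change of EPlOSAG00000029509 was −5.63 without mutant root library 1 and −3.82 without library 2 or 3. This row would not have passed the filter without WT root, so the filter itself favoured a difference. EPlOSAG00000026001 (91 bases) stood at 43.4, 35.8 and 30.7 FPKM in WT root and 0, 4.07 and 0.708 in mutant root. Every mutant root library lay below every WT root library, 23.0-fold by means (log2 change −4.18, SE 0.513, limma adjusted p = 0.00113), or −4.83 without mutant root library 2. In shoot it stood at 36.3, 16.2 and 13.9 FPKM in WT and 9.00, 8.37 and 8.28 in the mutant, also without overlap but not called (log2 change −1.15, limma adjusted p = 0.193).

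**Figure D4:**
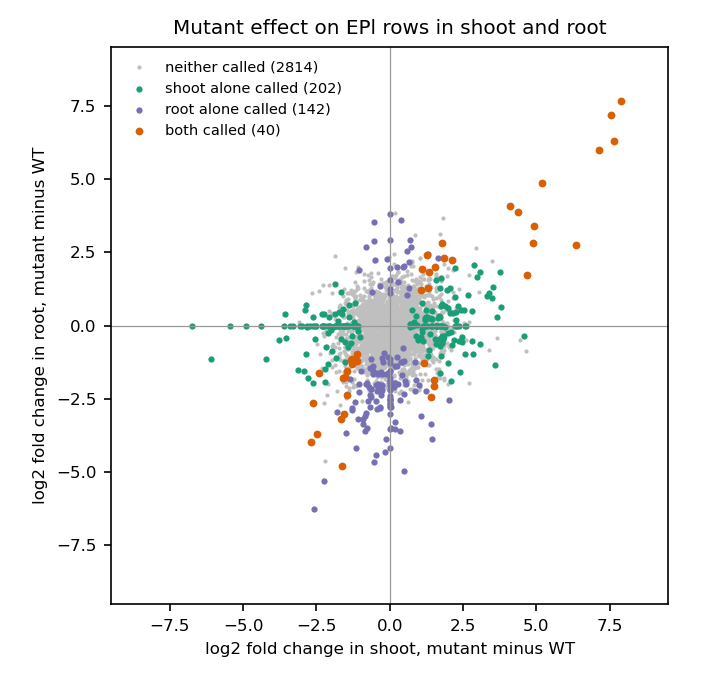
Each point is a member, with the log2 difference of mutant against WT in shoot on the x axis and in root on the y axis, on the log2(FPKM + 1) scale. Colours mark 40 members called in both organs, 202 in shoot alone, 142 in root alone and 2814 in neither.

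Members called in the same direction in both organs numbered 20 higher, 14.5% of the shoot rises and 42.6% of the root rises, and 16 lower, 15.4% and 11.9% of the falls. Another 4 were called in opposite directions. The same overlap over all rows tested is not given here, so these shares cannot be called particular to the members. The shoot and root comparisons use different WT libraries but share the estimate of each row's spread, and the shared count was 12 without the 3 rich libraries and 15 with the groups of each organ fitted alone.

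A small set of members was read in the mutant and not in WT. No read in the 6 WT libraries and reads in all 6 mutant libraries were found for 11 members (0.344%), beside 4 locus rows (0.0181%). The opposite pattern was found for 0 members and 3 locus rows. Of the 11, 5 had fewer than 100 reads (11 to 76), 10 were called in shoot and 10 in root. Within shoot alone, 74 members had reads in all 3 mutant libraries and none in WT, and 63 the reverse (2.31% and 1.97%, beside 0.127% of locus rows for each). In root these were 44 and 62 (1.38% and 1.94%, beside 0.0770% and 0.149% of locus rows). Members had a median of 23 reads over 12 libraries and a median length of 65 bases, against 1554 bases for locus rows. Short rows with few reads can lack a read in 3 libraries by counting alone. The filter needs 1 FPKM in 3 libraries, the size of a group, and a single read can give that on a short row. Short rows can therefore become members through the very libraries that make this pattern, which long locus rows cannot do on single reads. Shares for locus rows with similar reads are not given here.

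The 4 of the 11 with the most reads were 44 to 125 bases long. EPlOSAG00000020468 (55 bases) stood at 230.8, 250.5 and 236.4 FPKM in mutant shoot and 311.8, 183.2 and 140.5 in mutant root. EPlOSAG00000002969 (71 bases) stood at 220.3, 164.5 and 183.1 in mutant shoot and 228.8, 131.5 and 101.6 in mutant root. For both, the mutant shoot levels lay within the range of the mutant root levels, and mutant root library 1 was the highest of its group. EPlOSAG00000002969 was at least 202.1-fold above WT in shoot (log2 change 7.56, SE 0.253, limma adjusted p = 2.17e-08) and at least 134.4-fold in root (7.19, limma adjusted p = 1.11e-07).
EPlOSAG00000016607 (125 bases) stood at 129.1, 153.4 and 141.7 FPKM in mutant shoot and 144.4, 40.9 and 41.2 in mutant root. It was at least 265.8-fold above WT in shoot (log2 change 7.15, SE 0.389, limma adjusted p = 1.62e-06) and at least 116.1-fold in root (5.99, limma adjusted p = 1.53e-05, or 5.39 without mutant root library 1). EPlOSAG00000020549 (44 bases) stood at 206.6, 200.6 and 197.0 FPKM in mutant shoot and 119.9, 60.6 and 63.0 in mutant root. Here the mutant organs did not overlap, and mutant root was 2.48-fold below mutant shoot (log2 change −1.37, limma adjusted p = 0.00115). Mutant shoot library 2, which was not rich in the pair, had 153.4 to 250.5 FPKM of these 4 members. All 4 passed the filter through mutant libraries alone. Their WT groups at 0 add no spread to the shared estimate, so their p-values do not measure the mutant spread alone.

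**Figure D5:**
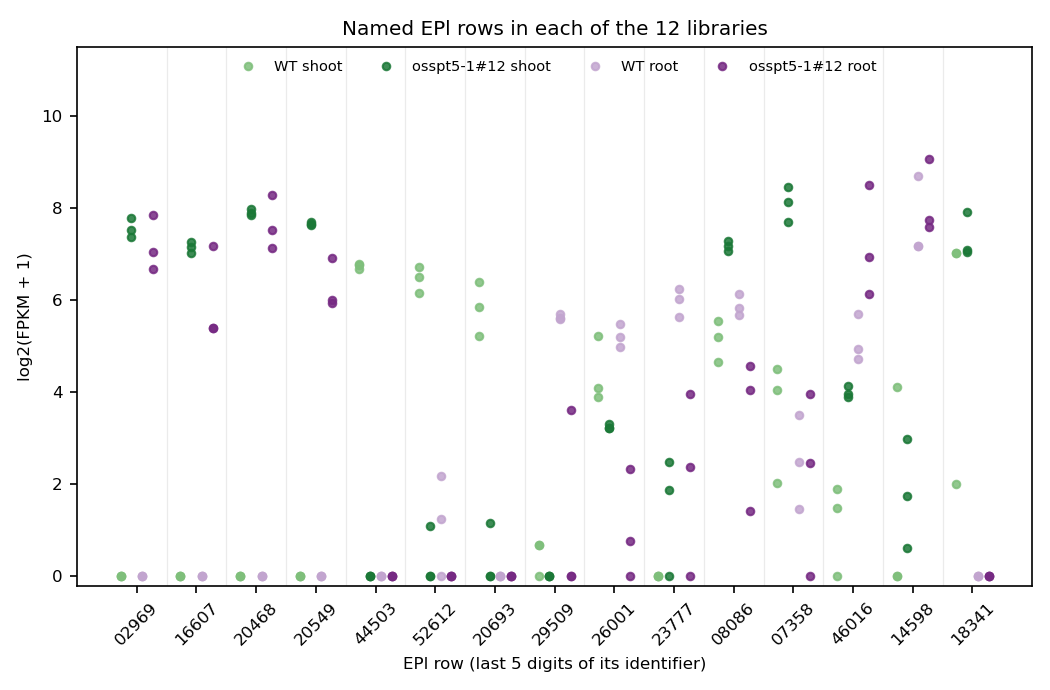
Points give the FPKM of named members in each library on a log2(FPKM + 1) axis, by group. The members without a read in WT sit at 0 in both WT groups and at 40.9 FPKM or more in every mutant library, and EPlOSAG00000044503 is above 0 in WT shoot alone.

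The mutant effect differed between organs for 131 members. It was more positive in root for 50 (1.56%) and more negative in root for 81 (2.53%), where 1.55% and 1.98% of all rows were called, a difference in shares that was not tested. Of the 131, 49 had 12 reads or fewer, and the count was 24 without the 3 rich libraries, 22 with limma-voom on recovered reads (6 and 16) and 36 with a replicate block (16 and 20). It was 75 to 86 without any 1 of the WT root or mutant shoot libraries, and 227 without mutant root library 1, with 41 in each direction without mutant shoot library 1. EPlOSAG00000008086 (76 bases) showed opposite directions. It stood at 24.4, 45.8 and 35.9 FPKM in WT shoot and 154.1, 144.5 and 133.9 in mutant shoot, and at 55.9, 50.6 and 69.5 in WT root and 22.8, 15.6 and 1.70 in mutant root. The mutant was above WT in every shoot library, which missed the threshold (log2 change 2.04, limma adjusted p = 0.0681), and below WT in every root library (−2.53, limma adjusted p = 0.0368). The difference between these effects was −4.57 (SE 0.888, limma adjusted p = 0.0191). This call was lost with a replicate block (0.0775), without mutant shoot library 1 (0.0527) or 2 (0.0509), without WT root library 3 (0.0526) and without the 3 rich libraries (0.357, limma adjusted p in each case), while the difference stayed between −4.61 and −4.45. It was −5.19 without mutant root library 1 and −3.61 without library 3, both called.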

How the data were processed

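Polyadenylated selection or ribosomal RNA removal is not given in the sources used here; per the labels' protocols, 2 µg of total RNA went into NEBNext Ultra libraries, a kit that does not mark strand. Values are FPKM as deposited, named so in the file headers. HTSeq 0.6.0, HISAT2 2.1.0, Bowtie2 2.2.3 and the build IRGSP-1.0 are listed without roles, per the submitters' processing notes. Reads of antisense or overlapping genes cannot be told apart, and reads of near-identical copies may be split or lost.

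Because FPKM steps are multiples of a single read, whole reads and row lengths were worked out for 100% of rows (tolerance 0.002 reads). The reads are the smallest whole numbers in proportion to a row's values. Where the true reads share a common factor, reads and length come out too low by that factor, likeliest for rows with few reads. How many members this touches was not tested. Lengths were whole within 0.05 bases for 98.4% of rows and 99.8% of members. Read-based floors and intervals cover counting error only, and floors are 3 reads over a group.

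The 25337 rows that passed the filter (1 FPKM in 3 of 12 libraries) were fitted at once with limma 3.58.1 (limma-trend) in R 4.3.3 on log2(FPKM + 1), with a mean for each of 4 groups. A row missing from a file was set to 0. The 4 groups shared a single estimate of each row's spread, to which a group at 0 throughout adds none. Benjamini-Hochberg adjustment ran over all rows tested, and adjusted p under 0.05 is called. Fold changes on this scale understate low rows. The script was tested on simulated data. Alternatives were another pseudocount, filter, scaling, model or set of libraries, and a replicate block.

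Members named are those at a mean of 1000 FPKM or more, the 2 largest rises and 2 largest falls per comparison among called members with no overlap, at least 40 bases and at least 100 reads in the higher group, and the 4 with the most reads among those without a read in WT. The members, this rule and the lists were chosen with earlier results of these data known.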

Additional observations from a re-analysis of the deposited data

Results flagged for a closer look

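For 7 named members the mutant effect differed between organs by the test of the difference itself, given here as the log2 fold change in root minus that in shoot. It was more negative in root for EPlOSAG00000020549 (−1.373, limma adjusted p = 0.0457), EPlOSAG00000026001 (−3.030, limma adjusted p = 0.0473), EPlOSAG00000023777 (−5.309, limma adjusted p = 0.0393) and EPlOSAG00000008086 (−4.574, limma adjusted p = 0.0191). It was more positive in root for EPlOSAG00000044503 (6.744, limma adjusted p = 1.23e-07), EPlOSAG00000052612 (4.954, limma adjusted p = 0.00333) and EPlOSAG00000020693 (5.438, limma adjusted p = 2.00e-04). The 3 more positive members stood at 3.56 FPKM or less in every root library, so they had little or no level there from which to fall. Of these, EPlOSAG00000044503 and EPlOSAG00000020693 would not have passed the filter without WT shoot. The call of EPlOSAG00000023777 was lost under 14 of the 21 other settings, with a difference of −3.72 and a limma adjusted p of 0.623 without the 3 rich libraries, and without 9 of the 12 libraries in turn. Settings under which EPlOSAG00000008086 lost its call are given above. The differences of EPlOSAG00000020549, EPlOSAG00000026001 and EPlOSAG00000052612 were not among the results followed under other settings. Whether those calls hold is therefore not known. With 3 libraries in each group, no single library was tested for standing apart.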

How the results depend on the processing

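Over 36 results on named members, 774 values under other settings kept direction and side of the threshold 714 times, lost the call 39 times, gained it 5 times and turned sign 16 times. Results that were not called and stayed so are among those kept. The named members were picked on these same data, most of them for large called changes. This tally therefore does not show that they are firmer than the counts. Counts move with single libraries, most members hold few reads, and the recovered lengths are not annotated lengths.

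Members called in shoot (242) numbered 118 with a filter of 5 FPKM, 151 with limma-voom, 42 without the 3 rich libraries and 146 to 305 when each library was left out. In root (182) they numbered 113 with 5 FPKM, 73 with the root groups alone, 77 without the rich libraries and 129 to 314 with a library left out. For the difference between organs (131) they numbered 49 with 5 FPKM, 22 with limma-voom, 24 without the rich libraries and 75 to 227 with a library left out. WT organ calls (541) were 313 with 5 FPKM, and mutant organ calls (454) were 302 with 5 FPKM and 109 without the rich libraries.

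The median change in shoot (0.061) was 0.145 with 5 FPKM, 0 with either set of median-ratio factors, with quantile normalization and without the rich libraries, 0.235 with limma-voom and 0 to 0.067 with a library left out. The median in root (−0.078) was −0.134 with a pseudocount of 0.1 and with factors from rows other than EPl, −0.223 with 5 FPKM, −0.130 with median-ratio factors, −0.244 with limma-voom and −0.144 to −0.025 with a library left out. WT organ calls turned from more in root to more in shoot with median-ratio factors (265 and 288), quantile normalization (269 and 279), and without WT root library 1 (230 and 240) or WT shoot library 2 (220 and 232).

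Members called alike in shoot and root (36) numbered 23 with limma-voom, 15 with the compared groups alone, 20 with the block, 12 without the rich libraries and 12 to 48 over all settings. Those called alike between organs in both genotypes (157) numbered 49 to 195.

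Changes of sign fell on the very abundant members. For EPlOSAG00000023741 the log2 difference was −0.126 in shoot without the rich libraries. In root it was 0.498 with quantile normalization, 1.551 without the rich libraries, and −1.614 to 1.551 with a library left out, in WT organs −0.083 without the rich libraries and −0.083 to 3.081 with a library left out, and in mutant organs 1.593 without the rich libraries. For EPlOSAG00000023740 it was −0.087 in shoot, 1.325 in root, −0.070 in WT organs and 1.341 in mutant organs without the rich libraries. With quantile normalization it was 1.854 in root and 1.077 in mutant organs, and with a library left out −1.406 to 1.325 in root and −0.070 to 2.661 in WT organs. For EPlOSAG00000020593 it was 0.040 in WT organs with quantile normalization. Apart from the removal of libraries, the cause of these moves was not tested.

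With a replicate block within each organ, 160 members were called in shoot, 112 in root and 36 for the difference between organs; the block could not be fitted for root against shoot. Same-numbered libraries of WT and mutant did not deviate together (r of −0.116, 0.141 and −0.0493 for the shoot pairs, and r of −0.274, −0.111 and −0.176 for the root pairs), so the numbers are not taken to pair them. Leaving out the rich libraries and the counts of shared calls under each setting were chosen after seeing the data.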
